A study of Bos grunniens with 18 samples.

Results

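N6-methyladenosine (m6A) peaks listed for the tail of the yak epididymis, the cauda, and for no other part of the duct are described here. A cauda peak was taken when none of its candidate adenosines stood in the list of the head (caput) or of the body (corpus). This held for 2107 of 14182 cauda peaks (14.9%, 95% Wilson interval 14.3 to 15.5), out of 42522 peaks in the 3 lists together. These cauda-only peaks were chosen from the lists themselves, so their absence from the other lists, and every difference between the cauda and the other regions at these peaks, is a description and was not tested.

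The tissue came from 6 healthy adult male yaks (Bos grunniens) of 4 years, with no treatment or genetic change that differed between groups. There were 18 libraries, namely 3 of antibody-enriched RNA (RIP) and 3 of unenriched RNA (input) for each of the 3 regions. All were made from fragmented poly(A) RNA. The labels do not tie libraries to animals, so the p-values quoted may rest on technical spread alone, and each region is whole tissue of many cell types. The files give 1 value per region or per pair of regions, so no replicate error can be attached to any value below, and the read depth behind a peak is unknown. The regions could not be checked against marker genes, since the deposited expression columns match no label.

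m6A is the most common internal methyl mark of messenger RNA. A nuclear complex built around METTL3 and METTL14 writes it within a short consensus sequence, FTO and ALKBH5 remove it, and proteins such as those of the YTH family read it and act on splicing, translation and decay. The cauda stores sperm once they have matured, and a thick coat of smooth muscle around its duct contracts at ejaculation. For each peak the authors listed candidate adenosines with a combined prediction score. The lowest score of an adenosine classed as an m6A site is 0.557 (low confidence), and the very high confidence class begins at 0.676. Of the candidates that the cauda list shares with another list, 0 differed in score between the lists, so the score describes the place and not the strength of methylation in a region.

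Cauda-only peaks were small. They held a median of 3 candidate adenosines (quartiles 2 and 5), against 6 (3 and 10) in the other 12075 cauda peaks, and 15.0% of them held 1 adenosine against 6.41%. Caput-only and corpus-only peaks, chosen in the same way, also held a median of 3 (2 and 5), with 1 adenosine in 16.9% and 17%. From first to last base, introns included, cauda-only peaks spanned a median of 450 bases against 1087 for the other cauda peaks. The median was 566.5 bases for caput-only and 792 for corpus-only peaks. The share of cauda peaks that were cauda-only was 29.0% (26.4 to 31.8) among peaks with 1 candidate, 20.2% (18.4 to 22.3) with 4 and 1.95% (1.53 to 2.49) with 10 or more. Part of this decline is set by the rule, since each further candidate is another position that could be found elsewhere. All shares carry 95% Wilson intervals that cover counting error only.

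A smaller share of cauda-only peaks than of other cauda peaks held an adenosine classed as an m6A site. The class was reached by 879 peaks, or 41.7% (39.6 to 43.8), against 61.4% (60.5 to 62.3) of the other cauda peaks. The very high confidence class was reached by 107 peaks, or 5.08% (4.22 to 6.10), against 11.6% (11.1 to 12.2). Among peaks with the same number of candidates, neither kind had the higher share throughout. With 3 candidates 33.5% (29.0 to 38.3) of cauda-only and 36.4% (33.9 to 39.0) of other cauda peaks were classed. With 4 candidates the shares were 49.5% (44.2 to 54.9) and 49.1% (46.4 to 51.8), and with 6 they were 65.3% (58.0 to 72.0) and 67.2% (64.2 to 70.0). The shares lay further apart with 7 candidates, at 76.3% (66.9 to 83.6) and 70.6% (67.6 to 73.5), and with 9, at 75% (57.9 to 86.7) and 82.8% (79.5 to 85.7). At each number of candidates from 1 to 10 or more, the intervals of both shares overlapped. Counted per adenosine, 1416 of 8203 positions in cauda-only peaks were classed (17.3%, 16.5 to 18.1) against 19.2% (19.0 to 19.5) in the other cauda peaks. Adenosines of 1 peak lie in 1 sequence, so these last intervals are too narrow.

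**Figure D1:**
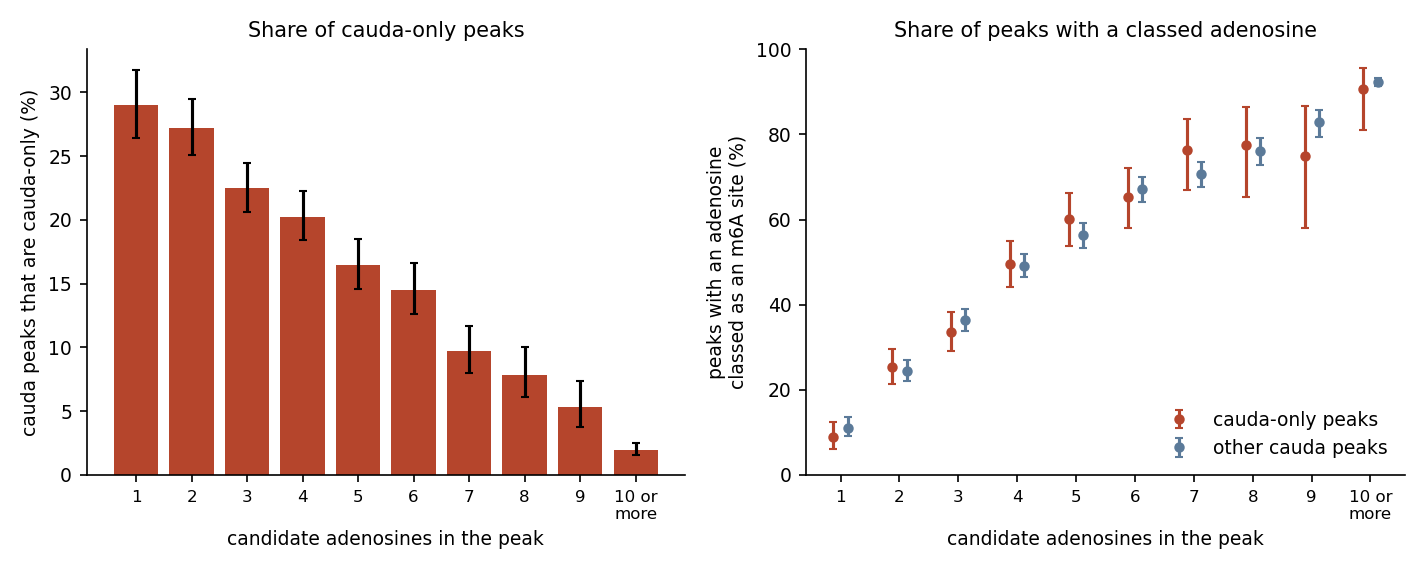
Left, the percentage of cauda peaks that are cauda-only (bars) by the number of candidate adenosines in the peak, falling from 29.0% at 1 to 1.95% at 10 or more. Right, the percentage of peaks with at least 1 adenosine classed as an m6A site, for cauda-only peaks and other cauda peaks; error bars in both panels are 95% Wilson intervals, and those of the paired points overlap at every number of candidates.

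Peaks of the other regions were chosen in the same way. Caput-only peaks numbered 2290 and were classed in 42.1% of cases (40.1 to 44.1), and corpus-only peaks numbered 1779 and were classed in 43.6% (41.3 to 45.9). Both intervals overlap that of the cauda-only peaks. A share of this size was thus found for all 3 kinds of peak.

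At the edge of the rule, 282 cauda peaks of 2 or more candidates had exactly 1 candidate in another list and were left out. They had a median of 3 candidates and a median highest score of 0.518, and 35.8% held a classed adenosine. The cauda-only peaks had a median highest score of 0.532 (quartiles 0.454 and 0.603). The 3197 cauda peaks of which some candidates were listed elsewhere and some were not held a median of 8.

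Most cauda-only peaks lay apart from any peak of the other lists. Part of this is set by the rule, since a cauda peak that shared a candidate with another list was left out. In 1940 cauda-only peaks (92.1%) no base overlapped a caput or corpus peak. The other 167 overlapped one without sharing a candidate, 65 with a caput peak, 67 with a corpus peak and 35 with both. A further 109 (5.17%) lay within 100 bases of such a peak, and 990 (47.0%) lay more than 10000 bases away. The median distance of the peaks that did not overlap was 10459 bases (quartiles 1184 and 44822).

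**Figure D2:**
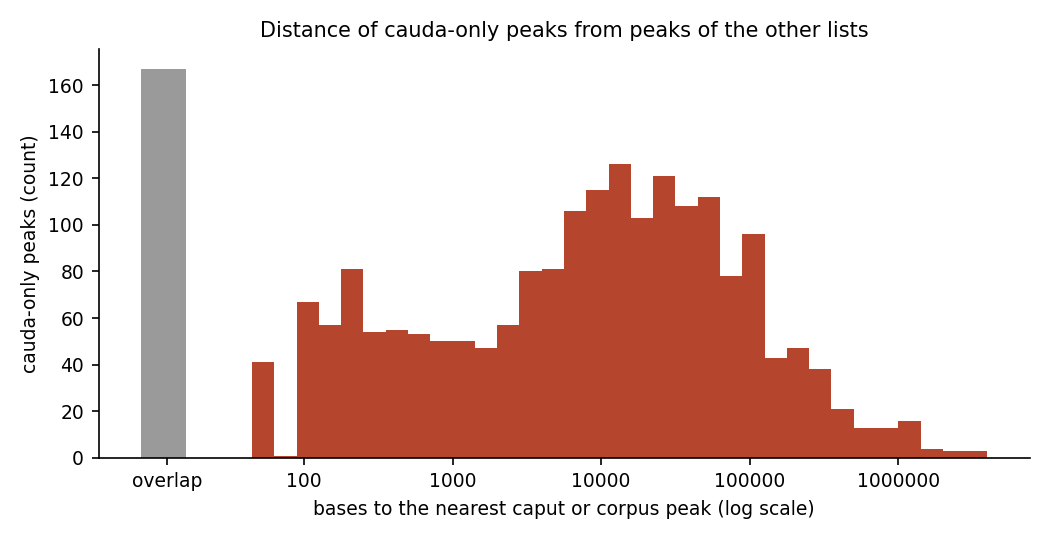
Number of cauda-only peaks by their distance in bases to the nearest caput or corpus peak (log scale, red bars), with the 167 overlapping peaks as the grey bar on the left. Within 100 bases lie 109 further peaks, from there to 1000 bases 350, to 10000 bases 491, and beyond 990.

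Cauda-only peaks were found on every chromosome of the cauda list, from 10.3% (7.11 to 14.6) of the cauda peaks of chromosome 27 to 19.1% (14.8 to 24.3) of those of chromosome 21. They seldom stood together: 145 (6.88%) had another cauda-only peak within 1000 bases. Genes are known here only for the peaks compared by the authors. Through these, 1295 cauda-only peaks (61.5%, 59.4 to 63.5) fell to 1 gene, against 95.2% (94.8 to 95.6) of the other cauda peaks. The share was 60.7% (58.6 to 62.6) for caput-only peaks and 63.4% (61.1 to 65.6) for corpus-only peaks.

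The 1295 peaks belonged to 1173 genes, or 15.6% of the 7500 genes with a cauda peak. A single cauda-only peak was found in 1066 of these genes, 2 in 94 and 3 or more in 13. In 758 genes (64.6%) a caput or corpus peak was also assigned to the gene, and in 415 genes (35.4%) none was. Peaks outside compared sites have no gene here, so some of the 415 may hold unassigned caput or corpus peaks. Of the 836 cauda-only peaks in genes with a peak in another list, 318 (38.0%, 34.8 to 41.4) lay 5′ of all those peaks, 259 (31.0%, 27.9 to 34.2) lay 3′ of all of them, 176 lay between them and 83 overlapped one. For caput-only peaks the 5′ and 3′ shares were 43.6% (40.2 to 47.0) and 26.0% (23.1 to 29.2), and for corpus-only peaks 39.2% (35.9 to 42.6) and 27.5% (24.6 to 30.7). The 5′ and 3′ intervals of the cauda-only peaks did not overlap each other, and those of the 3 kinds of peak overlapped.

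The cauda-only peak with the highest prediction score lay in CSNK1G1, a casein kinase of the gamma group, on chromosome 11 from 32168913 to 32177811 (plus strand). Its adenosine at position 32168981 scored 0.863 (very high confidence), a second at 32168988 scored 0.647, and the other 7 of its 9 candidates were not classed. In ANGEL2, which encodes an RNA phosphatase, the peak on chromosome 14 from 71010534 to 71012337 held 10 candidates, of which 5 were classed. Those at 71012249 and 71012260, 11 bases apart, scored 0.852 and 0.809. Coordinates follow the build of the deposited files, which no source used here names, and whether a peak is exonic or in a UTR was not analysed here.

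A peak of Lcor, a corepressor of nuclear receptors, reached 0.820 with 2 very high confidence adenosines among 4, and overlapped a corpus peak without a shared adenosine. Peaks of ZNF709, a zinc finger gene, and CXXC5, a CXXC-type zinc finger protein of Wnt and BMP signalling, reached 0.806 and 0.797. These peaks lay 848 and 1705 bases from the nearest corpus peak. The remaining 5 of the 10 top-scoring peaks with a gene symbol lay in SDF2 (0.771), CSMD3 (0.747), ZZEF1 (0.742), Galnt12, an enzyme that starts mucin-type O-glycans (0.734), and IRS1, the insulin receptor substrate (0.733). None of these 10 peaks other than that of CSMD3 had a site called in a cauda comparison, described further on.

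In CXXC5 and BCHE, cauda-only peaks sat close to peaks of the other lists. In CXXC5, on chromosome 8, a cauda-only peak from 55294043 to 55294292 lay 147 bases before a caput and a corpus peak, and a second, from 55296840 to 55296989, lay after them. The latter held adenosines of 0.797 and 0.679, both of very high confidence. In BCHE, which encodes butyrylcholinesterase, 3 cauda-only peaks on chromosome 1 between 110439169 and 110440567 stood around a corpus peak from 110440018 to 110440168, which overlapped the middle one by its outermost base. The nearest caput peak was 1473974 bases from the first of them.

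**Figure D3:**
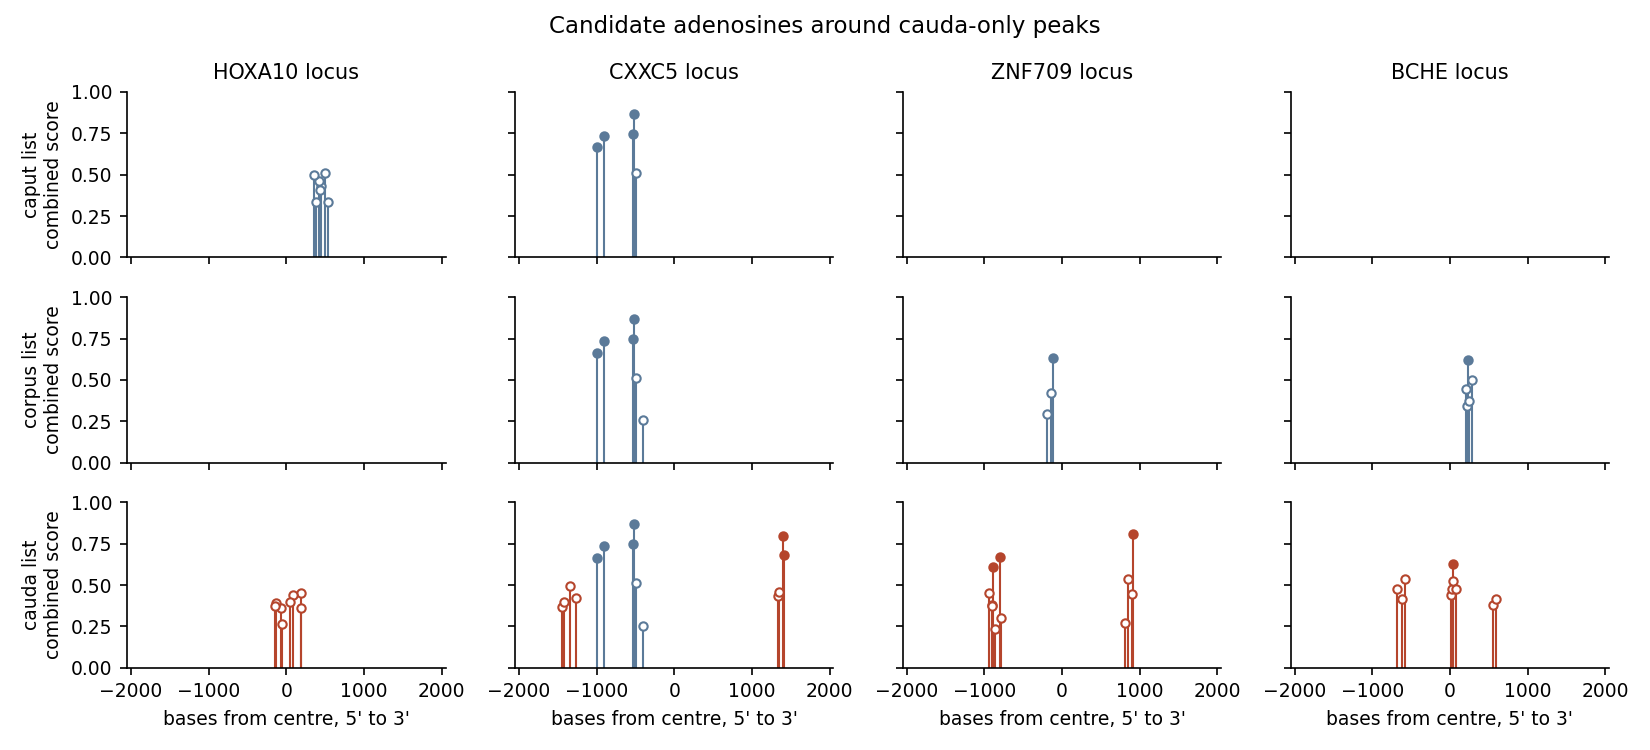
Combined prediction score of each candidate adenosine (height) against its distance in bases from the centre of the cauda-only peaks, 5′ to 3′, at the HOXA10, CXXC5, ZNF709 and BCHE loci, with the caput, corpus and cauda lists as rows. Red marks stand for cauda-only peaks, blue marks for other listed peaks, and filled marks for adenosines classed as m6A sites; the red marks stand beside blue ones and share no position with the upper rows.

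The most classed adenosines in a cauda-only peak with a gene symbol were those of EVC. The peak of EVC, a gene of hedgehog signalling at the cilium, spanned chromosome 6 from 16069001 to 16106803 with 56 candidates, of which 9 were classed. KIAA0825 had 8 of 25 classed, IQGAP2, a scaffold of the actin cortex, 7 of 24 and GP1BA, a subunit of the platelet receptor for von Willebrand factor, 7 of 30. PLIN4, a coat protein of lipid droplets, had 7 of 10 candidates classed in 150 bases. The others of the top 8 were LIMD1 (6 of 13), BPTF, a chromatin remodelling subunit (6 of 35), and ANGEL2.

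Several genes carried cauda-only peaks repeatedly. NBEA (neurobeachin, a trafficking scaffold) and CCDC141 had 4 each, and neither was assigned a peak of the caput or corpus list. BICD1, an adaptor of the dynein motor, FCRL5, an Fc receptor-like protein of B cells, and NRK, a kinase of the germinal centre kinase group, had 3 each and likewise none in the other lists. BCHE, DSEL and GALNT5 had 3 each beside 1 corpus peak, and GALNT5 also had another cauda peak. Peaks of 1 gene share their transcript, so these are not independent sightings.

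The authors also compared regions site by site. Each cauda-only peak was set beside the site of the comparison table that overlapped it best, by at least 1 base. Such a site was found for 1001 cauda-only peaks (47.5%) in cauda over caput and for 1036 (49.2%) in cauda over corpus, while 78.7% and 80.2% of the other cauda peaks had one. In all, 753 cauda-only peaks (35.7%) had a site in neither table, 671 in 1 and 683 in both. The 753 peaks without a site had a median of 3 candidates and a classed adenosine in 39.8%, against 46.1% for the 683 with sites in both.

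The sites that did match were mostly higher in the cauda, but few passed the authors' test. In the authors' deposited table of cauda over caput, the matched sites had a median log2 fold of 0.37 (quartiles 0.17 and 0.63), and 889 of 1001 were above 0. All sites of that table had a median of 0.043, and those matched to other cauda peaks 0.053. In the authors' deposited table of cauda over corpus the median was 0.34 (0.13 and 0.59), with 881 of 1036 above 0, against 0.046 for all sites. The rule used these same contrasts, and both comparisons share the cauda libraries, so nothing is read from these shifts. Whether the folds are relative to input is not stated in any source used here, so a fold may hold a difference in transcript abundance as well as in methylation. In whole tissue fewer cells of a type and less RNA per cell cannot be told apart. In corpus over caput, without cauda libraries, 378 cauda-only peaks (17.9%) had a site, with a median log2 fold of 0.01 (-0.23 and 0.19) in the authors' deposited table, against -0.020 for all sites.

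**Figure D4:**
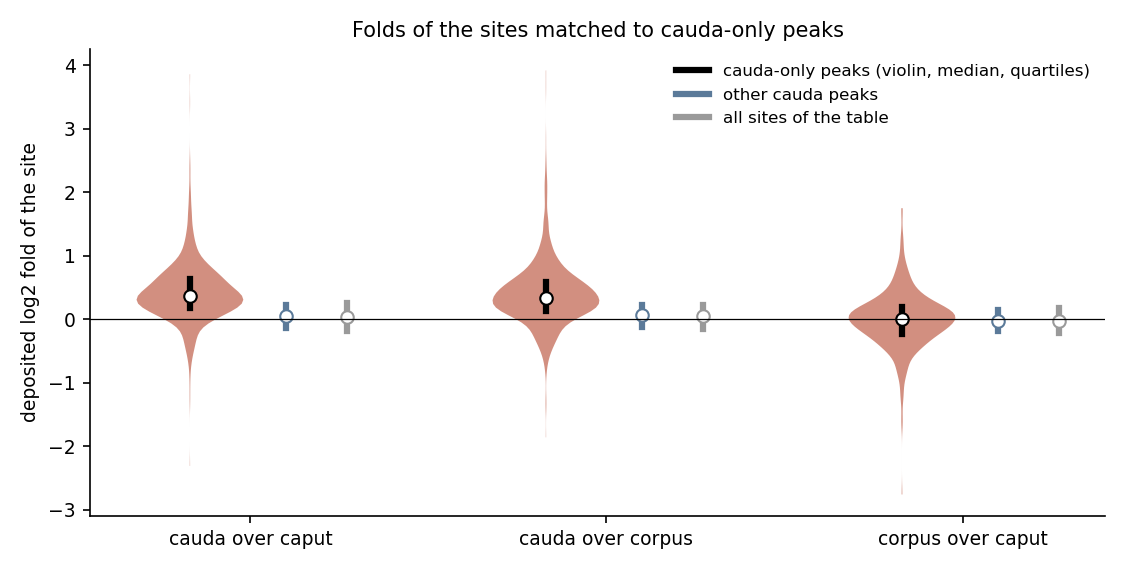
Deposited log2 folds of the sites matched to cauda-only peaks in each comparison (red violins; black bars, quartiles; open circles, medians), beside quartiles and medians for other cauda peaks and for all sites. The medians of 0.37 and 0.34 stand above 0 in the comparisons with the cauda, and the median of 0.01 in corpus over caput does not.

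Calls were taken from the authors' deposited table at an adjusted p under 0.05. In cauda over caput, 51 cauda-only peaks matched a site called higher and 5 a site called lower. The background over all 13826 sites was 1.41% higher and 0.861% lower. In cauda over corpus 31 were higher and 6 lower (background 1.24% and 0.719% of 13917 sites). A site thus passed as higher for 5.09% and 2.99% of the matched peaks, and as lower for 0.5% and 0.579%. The other matched sites did not pass. Of the 51 and 31 peaks called higher, 26 and 18 held an adenosine classed as an m6A site. Of the 5 and 6 called lower, 4 and 3 did. Among the 945 and 999 matched peaks not called, 402 and 441 did. In corpus over caput 2 were higher and 5 lower (background 1.12% and 1.86% of 14061 sites), shares of 0.529% and 1.32% of the matched peaks. At an unadjusted p under 0.05, 247 cauda-only peaks matched a site higher and 11 a site lower than in the caput (background 10.5% and 6.68%). Over the corpus 205 were higher and 18 lower (background 9.71% and 6.68%), and in corpus over caput 15 and 19 (background 7.21% and 9.24%). With an adjusted p under 0.05 and at least a 2-fold change, 16 were higher and 1 lower than in the caput (background 0.210% and 0.239%), and 14 and 1 than in the corpus (background 0.223% and 0.115%). In corpus over caput 1 was higher and 2 were lower (background 0.206% and 0.512%). The rule used the contrasts with the cauda, so nothing is read from those counts against their background. The p-values in this account are those of the authors' deposited table, and no source used here gives the test behind them.

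HOXA10, a homeobox gene that sets position along the male tract, was called in both cauda comparisons. Its cauda-only peak on chromosome 4 from 56111679 to 56112074 (minus strand) had log2 folds of 0.96 (adjusted p = 7.1e-06) over the caput and 1.03 (adjusted p = 0.0019) over the corpus by the authors' deposited table. The peak held 8 candidates with scores from 0.263 to 0.454, none classed as an m6A site. A caput peak with 7 candidates and a highest score of 0.508 stood 147 bases away, from 56111334 to 56111531, and fell in no compared site. The nearest corpus peak lay 33085 bases off and belonged to HOXA6.

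Of 7 posterior HOX genes with a cauda peak, 3 had a cauda-only peak, HOXA10, Hoxa11 and HOXC10. Across all genes with a cauda peak the share was 15.6%. HOXC10 had log2 folds of 0.51 over the caput (adjusted p = 0.55) and -0.45 over the corpus (adjusted p = 0.73), and Hoxa11 had 0.088 over the caput (adjusted p = 0.91) by the authors' deposited table. The Hoxa11 site extended beyond its peak. Neither held a classed adenosine, with highest scores of 0.420 and 0.492. This group was picked with an earlier count of these genes known and is not independent evidence.

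The largest fold over the caput among called peaks with a symbol was that of FCRL5, on chromosome 3 from 4743679 to 4745518 (minus strand), at 2.36 (adjusted p = 6.3e-05 by the authors' deposited table). It was 0.62 over the corpus (adjusted p = 0.16, the authors' deposited table). The matched sites overlapped this peak in part. The other cauda-only peaks of FCRL5 had log2 folds of -0.46 and 0.55 over the caput (adjusted p = 0.64 and 0.060) and of 0.85 and 0.97 over the corpus (adjusted p = 0.11 and 0.019) by the authors' deposited table. The nearest caput or corpus peak was 1205764 bases or more from each of the 3. FCMR, the Fc receptor for IgM and also a gene of B cells, had a site of the same span at 0.86 over the caput (adjusted p = 0.0044) and one at 0.65 over the corpus (adjusted p = 0.18) by the authors' deposited table. FCMR was chosen after its values were seen. The part of leukocyte content in these values was not tested.

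Among the other peaks named for the comparison with the caput, CLBA1 stood at 2.22 (adjusted p = 0.026), COQ7, an enzyme of ubiquinone synthesis, at 1.59 (adjusted p = 0.0065), and EVI5, a regulator of Rab proteins, at 1.75 (adjusted p = 0.026) over the caput by the authors' deposited table. FAM92A stood at 1.61 (adjusted p = 0.035) and SP110, a nuclear body protein, at 1.37 (adjusted p = 0.041) by the authors' deposited table. CSMD3, whose peak on chromosome 18 from 42726351 to 42726501 held an adenosine of 0.747 and lay 2787372 bases from any caput or corpus peak, had a log2 fold of 2.03 and a p of 0 by the authors' deposited table. The EVI5 site overlapped its peak in part. A p of 0 is listed for 3 sites of that table, so its size is not known.

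Over the corpus, the authors' deposited table gave the highest folds among called peaks to RTF2 (2.85, adjusted p = 0.041), NIPSNAP2, a mitochondrial protein (2.48, adjusted p = 0.0085), and PNPLA1, a lipid acyltransferase (2.19, p listed as 0). AFG3L2, a mitochondrial protease, followed at 2.16 (adjusted p = 0.045) and SV2C, a vesicle glycoprotein, at 2.10 (adjusted p = 1.8e-08) by the authors' deposited table. The SV2C site covered 450 bases of a peak that spans 137916, and the sites of STX6 and Tulp4 also overlapped their peaks in part. STX6, a syntaxin of the trans-Golgi network, was called against both regions, at 1.17 over the caput (adjusted p = 0.0078) and 1.53 over the corpus (adjusted p = 2.2e-04) by the authors' deposited table. RTF2 was also called over the caput, but at 0.24 (adjusted p = 0.0095) by the authors' deposited table, through a site with another start. Tulp4 (1.49, adjusted p = 0.042) and ANP32A (1.43, adjusted p = 0.025) complete the 8 named for this comparison in the authors' deposited table.

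Peaks in CDHR3, a cadherin-related protein of ciliated cells, KCNF1, a potassium channel subunit, and HDC, the enzyme that makes histamine, were also called higher against both regions, and are named after their values were known. CDHR3 had log2 folds of 1.09 (adjusted p = 3.8e-04) and 1.12 (adjusted p = 8.5e-06), KCNF1 0.95 and 0.75 (adjusted p = 0.011 for both) and HDC 0.68 and 1.42 (adjusted p = 0.041 and 0.028), over caput and corpus in turn, in the authors' deposited table. The CDHR3 site over the caput covered its peak in part. HDC marks mast cells, and the part of these cells in its values was not tested.

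Some cauda-only peaks matched sites that were lower in the cauda. USH1C, which encodes the scaffold harmonin, had a site of the same span as its cauda-only peak (chromosome 13 from 51799566 to 51800781, minus strand) at a log2 fold of -2.31 (adjusted p = 0.0022) over the caput by the authors' deposited table. The site matched to it in corpus over caput, overlapping in part, was at -2.76 (adjusted p = 0.025, the authors' deposited table). A caput or corpus peak lay 645 bases away. NRK had sites at -1.40 (adjusted p = 0.028) and -0.43 (adjusted p = 0.046) over the corpus by the authors' deposited table, although the candidates assigned to NRK were listed in the cauda alone. SERPINA1, which encodes the antitrypsin of plasma, was higher over the caput at 0.93 (adjusted p = 5.5e-04) and lower over the corpus at -0.64 (adjusted p = 0.019) by the authors' deposited table. The other lower ones with a symbol were HSPA1A (-0.29), GMDS (-0.048) and GALNT5 (-0.042) over the caput and RTRAF (-0.60) and RIBC2 (-0.28) over the corpus, in the authors' deposited table. The sites of HSPA1A over the caput and of SERPINA1 over the corpus overlapped their peaks in part. Reads of HSPA1A can come from its close paralogs, so its value is uncertain.

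Sites of 3 GALNT5 peaks had folds of both signs. GALNT5, an enzyme that starts O-glycans, had log2 folds over the caput of 0.90 (adjusted p = 0.021), 0.16 (adjusted p = 0.73) and -0.042 (adjusted p = 0.024) from the 5′ to the 3′ peak in the authors' deposited table. Over the corpus they were 0.30 (adjusted p = 0.15), -1.22 (adjusted p = 0.98) and 1.23 (adjusted p = 6.9e-05) by the authors' deposited table. The order of p-values does not follow the size of the folds here, nor for GP1BA, with folds of 0.54 (adjusted p = 4.9e-07) and 0.17 (adjusted p = 9.8e-09) by the authors' deposited table.

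Peaks outside compared sites have no gene here, so the following count can miss caput or corpus peaks. In 415 genes every candidate assigned to the gene stood in cauda-only peaks and none in another list. Those with a symbol and the most candidates were GP1BA (28 positions assigned to it), NBEA (27), KIAA0825 (25), C3, the central component of complement (17), NRK (17), Pde10a, a phosphodiesterase (16), CCDC141 (15) and CCDC124 (12). A listing in the cauda alone did not always go with a difference in the authors' comparisons. GP1BA was called higher over both regions and NRK lower over the corpus, while C3 and CCDC124 were not called. C3, with 1 peak on chromosome 8 from 18533629 to 18535027, had a site of exactly this span in all 3 tables, at -0.032 over the caput (adjusted p = 0.94), -0.042 over the corpus (adjusted p = 0.95) and 0.0096 in corpus over caput (adjusted p = 0.92) by the authors' deposited table. The site of CCDC124 was at 0.038 over the caput (adjusted p = 0.93) by the authors' deposited table.

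Among genes of the m6A machinery, cauda-only peaks stood in 1 of 10 writer genes with a cauda peak (Rbm15b, an RNA-binding adaptor of the methyltransferase), in 1 of 2 eraser genes (ALKBH5) and in 3 of 12 reader genes (IGF2BP2, PRRC2A and ELAVL1). ALKBH5, a demethylase, had log2 folds of 0.30 over the caput (adjusted p = 0.27) and 0.48 over the corpus (adjusted p = 0.069) by the authors' deposited table. Rbm15b had 0.58 (adjusted p = 0.24) and 0.19 (adjusted p = 0.91), and ELAVL1, which stabilises AU-rich transcripts, 0.12 (adjusted p = 0.94) and 0.13 (adjusted p = 0.64) by the authors' deposited table. None of the 5 genes had a site called at these peaks.

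Ion and water transport genes, which concentrate and acidify the fluid around stored sperm, had cauda-only peaks in 4 of 9 genes with a cauda peak. Among them were AQP7, a water and glycerol channel, ATP1B1, a sodium pump subunit, and SLC26A2, a sulfate transporter. The ATP1B1 sites were at 0.53 over the caput (adjusted p = 0.60) and 0.49 over the corpus (adjusted p = 0.51) by the authors' deposited table. None of the 4 was called. ELSPBP1, a sperm-binding protein secreted by the epididymis, was the 1 secretory gene with a cauda peak and was higher over both the caput (0.33, adjusted p = 0.026) and the corpus (0.25, adjusted p = 0.038) by the authors' deposited table. None of the 5 candidates in that peak was classed, and the highest scored 0.509.

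Lists of cell types in the wall and blood supply of the duct were counted in the same way. Smooth muscle genes had them in 2 of 12 genes, Mylk (myosin light chain kinase) and MYOCD (myocardin, the coactivator of smooth muscle genes), with 2 peaks each. Mylk sites stood at 0.72 and 1.43 over the caput (adjusted p = 0.79 and 0.13) by the authors' deposited table. Fibroblast and matrix genes had 2 of 12 (FN1 and COL6A3), endothelial genes 3 of 8 (VWF, EMCN and CDH5), basal cell genes 2 of 7 (Tp63 and NGFR) and leukocyte genes 1 of 9. EMCN was called in corpus over caput alone, at -0.84 (adjusted p = 0.025, the authors' deposited table). The part of these cell types in the lists was not tested. Oxidative defence genes had 2 of 8 (NQO1 and HMOX1) and stress response genes 1 of 8 (HSPA1A).

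None of the genes with a cauda peak had a cauda-only peak among the 8 sperm and spermatid genes, 8 steroid hormone genes, 8 tight junction and adhesion genes, 5 multiciliated cell genes, 3 clear and narrow cell genes and 1 beta-defensin gene so listed. No erythrocyte gene of the list had a cauda peak. With 12 or fewer genes a list, and a share of 15.6% over all genes, these counts single out no list.

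**Figure D5:**
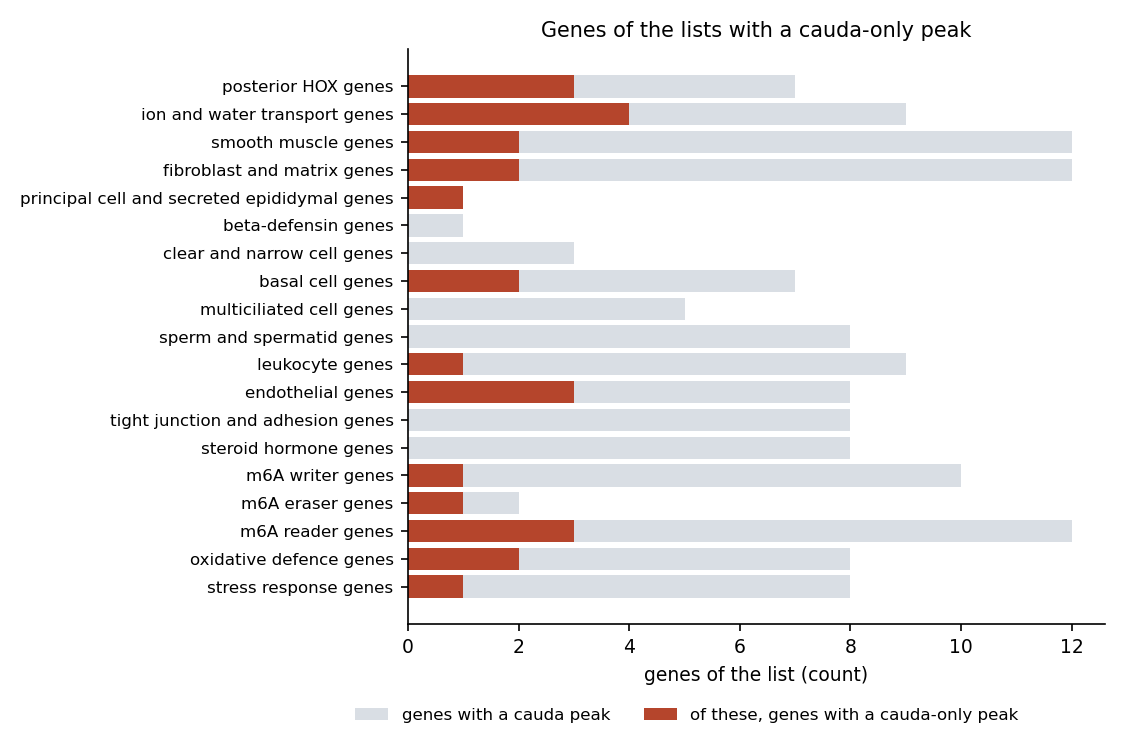
Number of genes of each list with a cauda peak (grey bars) and, of these, with a cauda-only peak (red bars). Over all genes the share is 15.6%; ion and water transport has 4 of 9 and 6 lists have none.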

How the data were processed

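RIP and input libraries of the caput, corpus and cauda were grouped by title. Per the submitters' processing notes, Trimmomatic, HISAT2 and deepTools were used. The build, peak caller, site predictor and differential test: not given in the sources used here. Per the file headers, the authors deposited a prediction score and class per candidate adenosine, and per site of a comparison a p-value, an adjusted p-value, a ratio (fold) and its log2. The 9 expression columns match no label and were not used, so the expression test was not run. From that table gene symbols were taken, for 9319 of 9629 gene identifiers. No sequence is printed, as no genome was used here.

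Repeated lines were counted once with the highest combined score. Deposited starts never equal a candidate position and ends do, so starts were read as counting from 0 and printed counting from 1. A position belongs to a gene when it falls in compared sites of exactly 1 gene. Each peak was matched to the overlapping site with the largest intersection over union. Shares have 95% Wilson intervals (statsmodels 0.14.6). The rule and the matching were tested on simulated data.

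The peaks, the 20 gene lists (360 entries) and the naming rule were chosen with earlier results of these data known. Named are the 10 peaks with the highest scores, the 8 with the most classed adenosines, per cauda comparison up to 8 called peaks by absolute log2 fold, the 8 genes with the most cauda-only peaks, list genes, and the 8 genes with the most candidates in the cauda list alone. Alternatives changed the rule, the threshold and the matching. Values of some list genes are not reported here.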

Additional observations from a re-analysis of the deposited data

How the results depend on the processing

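The count of 2107 cauda-only peaks was 1940 when any base of overlap with a caput or corpus peak was barred, 1372 with at least 3 candidates a peak, and 1227 when a peak needed a classed adenosine and only those counted as shared. The share with a classed adenosine (41.7%) was 42.1%, and 54.3% with at least 3 candidates, and 18.5% when high or very high confidence was asked for; under the classed-only rule it is fixed by construction and was not computed. Of 1001 matched peaks, 56 were called in cauda over caput (background over all sites 1.41% higher and 0.861% lower). The count was 37 of 705 matched under the classed-only rule and 27 of 439 with a site of the same span. Of the 1001, 258 passed at an unadjusted p under 0.05 (247 higher, background 10.5%). When a 2-fold change was asked for beside the adjusted p, 17 passed (16 higher, background 0.210%). In cauda over corpus 37 of 1036 matched peaks were called (background 1.24% higher and 0.719% lower), and 9 of 421 with the same span. Of the 1036, 223 passed unadjusted (205 higher, background 9.71%) and 15 with a 2-fold change (14 higher, background 0.223%). In corpus over caput 7 of 378 matched peaks were called (background 1.12% higher and 1.86% lower). The count was 4 of 293 without overlap and 12 of 393 under the classed-only rule. It was 3 of 225 with a mutual cover of 50% or more and 2 of 56 with the same span. Of the 378, 34 passed unadjusted (background 7.21% and 9.24%) and 3 with a 2-fold change (background 0.206% and 0.512%). The same-span setting was chosen after seeing the data. The 415 genes with all assigned candidates in cauda-only peaks were 179 under the classed-only rule. In every cauda comparison and setting more peaks were higher than lower. The rule used these contrasts in every setting, so nothing is read from that excess. Some settings also kept a different number of matched peaks, and the cause of the changes in count was not tested. No paired analysis was possible because the files hold no values per library that can be tied to a sample, and for the same reason no library could be left out and the planned expression alternatives were not run.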

Other observations

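Some cauda-only peaks with many classed adenosines had no gene. A peak on chromosome 7 from 36373147 to 36377764 held 36 candidates, of which 19 were classed as m6A sites, with a highest score of 0.672, and lay 97 bases from a caput or corpus peak. A peak on chromosome 1 from 160565198 to 160758680 held 40 candidates, of which 16 were classed and 2 were of very high confidence, and lay 460184 bases from any such peak. A peak on chromosome 5 from 56717370 to 56758566 held 23 candidates with 8 classed, fewer than the 9 of EVC. None of these 3 overlapped a site of any comparison table, so no fold is given for them. They were chosen after their values were seen.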
